A study of Mus musculus with 4 samples.

Results

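Granins are acidic proteins that aggregate in the trans-Golgi network and fill the dense-core secretory granules of endocrine cells. The membrane of these granules carries proteins that load them with zinc, stabilise them and tether them to the cytoskeleton. In islets, the endocrine tissue of the pancreas, such granules hold insulin, glucagon and the other islet hormones, and autoantibodies against the products of Ptprn, Ptprn2 and Slc30a8 are markers of autoimmune diabetes in humans. RNA of 9 such genes was followed through 4 mouse RNA-sequencing libraries. They are the 5 granin genes Chga, Chgb, Scg2, Scg3 and Vgf, the membrane protein genes Ptprn, Ptprn2 and Slc30a8, and Resp18, which encodes a luminal protein related to that of Ptprn. They were taken by symbol, and all 9 were found among the 43629 Ensembl genes counted.

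Each group was 1 library, and every library was labelled as islet of strain C57BL/6. One carries the genotype Rip2;IMP2, given by the title of the series as a knockout of IMP2 specific to islets, and is called the labelled KO. The IMP2 RIP library, of genotype WT, holds RNA precipitated together with IMP2, an RNA-binding protein encoded by Igf2bp2. The IgG library, also of genotype WT, is by its name an antibody control. The fourth library, of genotype control, is called control islets. Rip2 is a usual name for an insulin gene promoter, which is active in beta cells, so other islet cells may keep the intact gene. The number of animals, their age and the deleted stretch were not stated. With 1 library a group, no difference has a replicate check, and there is no p-value. Intervals are 95% intervals that cover counting error only, since reads that carry no molecular identifier may be copies of the same molecule.

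Gene counts summed to 24275628 in the labelled KO, 6025594 in the IMP2 RIP, 13195732 in IgG and 26350813 in control islets. Igf2bp2 had 222 reads in the labelled KO, 186 in the IMP2 RIP, 458 in IgG and 255 in control islets. Its ratio of labelled KO over control was 0.978 (0.813 to 1.17), so its level over the whole gene did not separate the labelled KO from control islets. The IgG library went against its tissue label. Its 22 beta cell markers summed to 1202 CPM (counts scaled to a library total of 1000000), against 310712 CPM in control islets, with Glp1r and Ffar1 at 0. Its 12 brown adipocyte markers summed to 84614 CPM, against 386 CPM in control islets. All 22 beta cell markers were detected in the other 3 libraries.

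Granin promoters are known for the cyclic AMP response element (CRE), bound by CREB1, and for RE1, the element of the repressor REST. RefSeq promoter windows of 300 bases, 250 before and 50 from the transcription start (GRCm38.p6), were found for 7 of the 9 genes, all but Vgf and Slc30a8. Ptprn has a pair of starts, which makes 8 windows. On both strands, the full CRE (TGACGTCA) was found in Chgb and Scg2 and in 1.79% of all 32851 windows. Its core (TGACGT), part of the full CRE, was found in Chga, Chgb and Scg2 and in 7.51% of all windows. The left RE1 part (CAGCACC) was found in Chgb, Scg2 and Ptprn2 and in 7.14% of all windows. In Scg2 and Ptprn2 it is followed directly by the right part (GGACAG), as in 0.00913% of all windows. That joined form was searched after the windows had been read, so its place in these genes is a description. The joined form is not the spaced one, with 2 bases between the parts, which was found in 0 of the 8 windows and in 0.0365% of all windows. The windows that hold these letters follow, 5′ to 3′ on the strand of the gene, with capitals on the CRE or its core, on the joined RE1 parts and on TATAAA.
Chga, chr12:102554691-102554990, plus strand: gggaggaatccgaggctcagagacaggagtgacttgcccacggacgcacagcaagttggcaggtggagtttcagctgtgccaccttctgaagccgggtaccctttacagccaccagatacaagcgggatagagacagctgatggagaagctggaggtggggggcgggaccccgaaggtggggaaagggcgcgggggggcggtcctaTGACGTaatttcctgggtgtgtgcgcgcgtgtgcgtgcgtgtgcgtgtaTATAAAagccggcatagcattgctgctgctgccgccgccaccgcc
Chgb, chr2:132781392-132781691, plus strand: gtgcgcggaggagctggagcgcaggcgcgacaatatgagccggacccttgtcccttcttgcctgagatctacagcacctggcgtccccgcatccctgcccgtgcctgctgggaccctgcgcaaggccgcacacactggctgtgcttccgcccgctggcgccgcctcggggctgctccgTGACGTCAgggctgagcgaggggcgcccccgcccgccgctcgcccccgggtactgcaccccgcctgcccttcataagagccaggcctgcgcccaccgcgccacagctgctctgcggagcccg
Scg2, chr1:79439977-79440276, minus strand: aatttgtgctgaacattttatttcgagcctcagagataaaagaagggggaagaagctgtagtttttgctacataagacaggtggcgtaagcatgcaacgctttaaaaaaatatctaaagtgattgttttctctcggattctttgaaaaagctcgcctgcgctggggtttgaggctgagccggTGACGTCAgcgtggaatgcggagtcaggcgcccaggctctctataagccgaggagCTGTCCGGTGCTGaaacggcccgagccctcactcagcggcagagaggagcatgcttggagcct
Ptprn2, chr12:116485470-116485769, plus strand: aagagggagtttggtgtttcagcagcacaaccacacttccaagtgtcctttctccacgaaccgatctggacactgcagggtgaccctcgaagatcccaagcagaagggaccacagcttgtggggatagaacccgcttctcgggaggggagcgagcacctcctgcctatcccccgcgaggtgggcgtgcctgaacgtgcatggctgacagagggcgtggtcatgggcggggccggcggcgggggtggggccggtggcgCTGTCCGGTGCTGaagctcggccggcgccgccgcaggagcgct

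The CRE began 68 bases before the start of Scg2 and 72 bases before that of Chgb, and the core began 44 bases before that of Chga. The joined RE1 parts, on the opposite strand, ended at the last base before the start of Scg2 and covered bases 8 to 20 after that of Ptprn2. TATAAA was found in Chga alone of the 7 genes, from base 6 after the RefSeq start, and in 13.6% of all windows. For Chga, Chgb and Scg2 the RefSeq start is not the start of the annotated gene given below. The distances of their motifs therefore depend on the annotation. Both other motifs searched are common: the GC box (GGGCGG), in Chga, Chgb, Ptprn and Ptprn2, lay in 35.7% of all windows, and CCAAT, in Scg3 and Resp18, in 37.4%. A match describes letters and shows no binding.

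Together the 9 genes held 1.70% of gene counts in the labelled KO, 1.15% in the IMP2 RIP, 0.00700% in IgG and 1.55% in control islets. Among the granins, Chga encodes chromogranin A, the precursor of vasostatin and pancreastatin (chromosome 12, 102554969 to 102565028, plus strand; positions are mm10). It had 9532 CPM in the labelled KO, 5715 in the IMP2 RIP, 37.4 in IgG and 9339 in control islets. By count it was number 7 of all genes in the labelled KO, 8 in the IMP2 RIP, 2898 in IgG and 6 in control islets. Chgb encodes chromogranin B, which promotes granule formation (chromosome 2, 132781278 to 132795079, plus strand). It had 2985 CPM in the labelled KO, 2335 in the IMP2 RIP, 7.43 in IgG and 2324 in control islets. Both chromogranins were thus lowest in IgG by a wide margin, while the IMP2 RIP lay below control islets for Chga and beside them for Chgb.

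Scg2, the precursor of secretoneurin (chromosome 1, 79434669 to 79440120, minus strand), had 1333 CPM in the labelled KO, 962 in the IMP2 RIP, 9.85 in IgG and 1154 in control islets. Scg3, whose product binds chromogranin A and the cholesterol-rich granule membrane (chromosome 9, 75643189 to 75684056, minus strand), had 806 CPM in the labelled KO, 581 in the IMP2 RIP, 3.56 in IgG and 725 in control islets. For both, the IMP2 RIP held less than control islets per gene count, and the labelled KO held most. Vgf, the precursor of the TLQP and NERP peptides (chromosome 5, 137026392 to 137033351, plus strand), had 36.1 CPM in the labelled KO, 29.2 in the IMP2 RIP, 0.0758 in IgG and 30.2 in control islets. Its level in IgG is 1 read, and it had the fewest reads of the 9 in every library.

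Ptprn encodes IA-2 (ICA512), a receptor tyrosine phosphatase without catalytic activity that spans the granule membrane (chromosome 1, 75247027 to 75264502, minus strand). It had 712 CPM in the labelled KO, 586 in the IMP2 RIP, 2.20 in IgG and 565 in control islets. Its paralog Ptprn2 encodes phogrin, or IA-2 beta (chromosome 12, 116485720 to 117276849, plus strand). It had 142 CPM in the labelled KO, 67.7 in the IMP2 RIP, 0.530 in IgG and 117 in control islets. The IMP2 RIP was therefore a little above control islets for Ptprn and well below them for Ptprn2. Slc30a8 encodes ZnT8, which carries into the granule the zinc that crystallises with insulin (chromosome 15, 52295553 to 52335798, plus strand). It had 453 CPM in the labelled KO, 343 in the IMP2 RIP, 6.29 in IgG and 397 in control islets. Resp18, in the granule lumen (chromosome 1, 75272199 to 75278415, minus strand), had 1044 CPM in the labelled KO, 847 in the IMP2 RIP, 2.73 in IgG and 807 in control islets. Except in IgG, every level of these 4 genes lay within a 2-fold range of the gene's level in control islets.

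**Figure D1:**
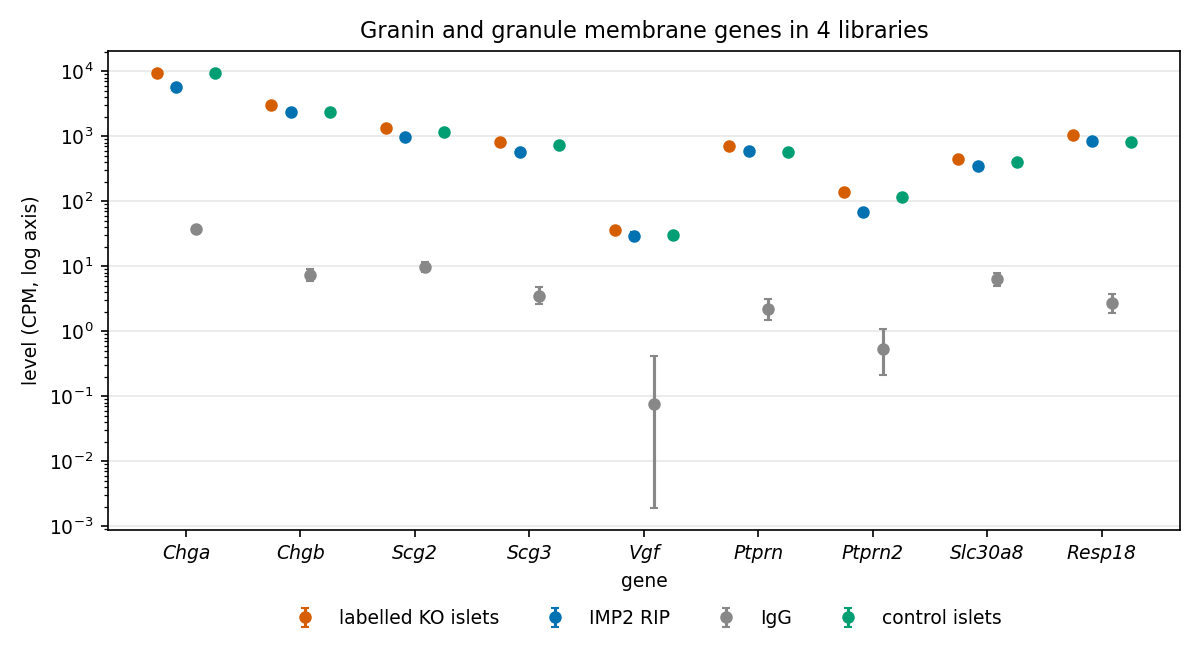
Level of each gene in CPM (log axis) in the labelled KO, IMP2 RIP, IgG and control libraries; a point is 1 library and a bar its exact 95% Poisson interval. For each gene the labelled KO, IMP2 RIP and control lie close together, and IgG lies far below, from 37.4 CPM for Chga to 0.0758 CPM for Vgf.

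Genes were compared with each other as CPM per kilobase (kb) of annotated exon. In control islets Chga was first at 3388 CPM per kb, followed by Chgb at 848 and Resp18 at 782. Scg2 at 459, Scg3 at 265, Slc30a8 at 202 and Ptprn at 133 CPM per kb came next. Ptprn2 at 13.6 (13.1 to 14.1) and Vgf at 10.2 (9.47 to 10.9) CPM per kb were last, and no neighbours in this order had overlapping intervals. The labelled KO had the same order. In IgG Chga was first at 13.6 CPM per kb, but Scg2 at 3.92 (3.27 to 4.65) and Slc30a8 at 3.19 (2.54 to 3.96) stood before Chgb at 2.71 (2.20 to 3.30) and Resp18 at 2.64 (1.85 to 3.66), with intervals that overlap from each of these 4 to the next. In the IMP2 RIP the last pair changed places, with Vgf at 9.82 (8.43 to 11.4) and Ptprn2 at 7.87 (7.13 to 8.67) CPM per kb, and these intervals overlap. Those of Chgb, 852 (838 to 866), and Resp18, 821 (798 to 843), overlap there too. Overlap does not show that levels are the same. The choice of length matters for both pairs of places. Over the length of its principal transcript, Resp18 stood at 1078 CPM per kb in control islets, above Chgb at 848, and Ptprn2, with 8602 bases of annotated exon but a principal transcript of 3201, stood at 36.5. By that length the last pair kept its places in the IMP2 RIP, with Ptprn2 at 21.2 and Vgf at 10.3 CPM per kb.

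The labelled KO was compared with control islets to see how RNA of these genes differed with the genotype label. After TMM scaling all 9 genes had a higher level in the labelled KO, by 1.06-fold to 1.34-fold, whereas with the median of the beta cell markers set to 1 only 3 lay above control and 6 below. A gene was called at 1.5-fold with an interval that excludes 1, and 0 of 9 were called higher and 0 lower, against 6.11% and 15.4% of 15735 measured genes (a mean of at least 1 CPM). Intervals lay above 1 for 9 of 9 and below 1 for 0, against 28.8% and 31.6% of measured genes. Counting intervals narrow with reads, so these shares also reflect depth. The 9 genes had 796 to 246081 reads in control islets. Ratios above 1 were found in 50.1% of measured genes and ratios below 1 in 49.9%. The median log2 ratio was 0.31 for the 9 and 0.00 for all measured genes. With an assumed variation of 0.2 in each library, 0 of 9 intervals exclude 1. Over all genes the calls were 962 higher and 2416 lower by TMM, and 198 higher and 4722 lower with the beta cell median set to 1.

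The ratios of labelled KO over control were highest for Resp18, 1.34 (1.31 to 1.36), Chgb, 1.33 (1.31 to 1.34), and Ptprn, 1.30 (1.28 to 1.33). Ptprn2 at 1.25 (1.19 to 1.32) and Vgf at 1.24 (1.12 to 1.36) had intervals that overlap that of Ptprn. Overlap does not show that the Ptprn paralogs have the same ratio, and their difference was not tested. Scg2 at 1.19 (1.18 to 1.21), Slc30a8 at 1.18 (1.15 to 1.21) and Scg3 at 1.15 (1.13 to 1.17) followed. Chga, the most abundant, had the lowest ratio, 1.06 (1.05 to 1.06). The chromogranins differed in a way that needs no scaling between libraries: there were 3.19 reads of Chga per read of Chgb in the labelled KO and 4.02 in control islets, a quotient of 0.795 (0.785 to 0.804). The same quotient was 1.01 (0.987 to 1.03) for Resp18 and 0.981 (0.957 to 1.01) for Ptprn, whose intervals include 1, and 0.865 (0.845 to 0.885) for Scg3.

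Marker genes moved in the same comparison. The 22 beta cell markers had a median ratio of 1.28, and relative to it the 9 genes ran from 0.825 for Chga to 1.05 for Resp18. The 9 alpha cell markers, 4 called higher, summed to 26426 CPM in the labelled KO and 15498 CPM in control islets. The 10 lymphocyte markers, all 10 called lower, summed to 215 CPM in the labelled KO and 1199.7 CPM in control islets. The delta, PP and epsilon cell markers summed to 10819.8 CPM in the labelled KO and 12731 CPM in control islets. Their part in the ratios of the 9 genes was not tested. In bulk RNA, a change in the number of cells of a type and a change in RNA per cell cannot be told apart.

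**Figure D2:**
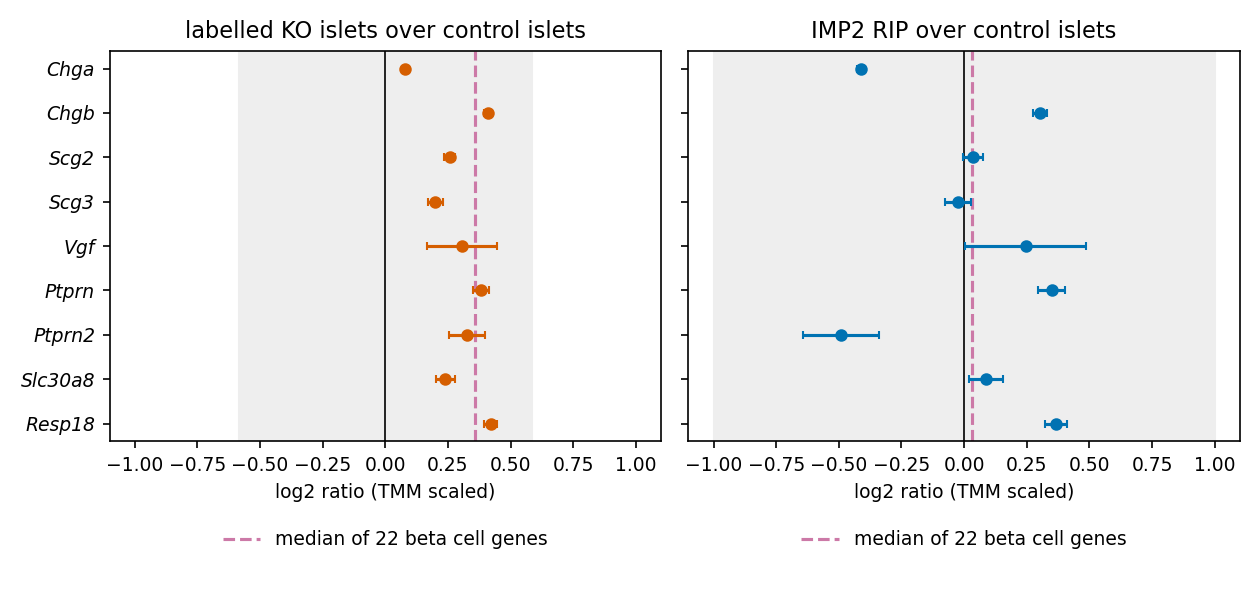
Log2 ratio of TMM-scaled counts of each gene, labelled KO over control (left) and IMP2 RIP over control (right), with exact 95% counting intervals; the grey band holds ratios inside the fold limit for a call and the dashed line is the median of the 22 beta cell markers. All points lie inside the band; on the left all 9 lie above 0 but 6 lie left of the beta cell median, and on the right Chga and Ptprn2 lie at -0.41 and -0.49.

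The IMP2 RIP was set against control islets to see how the RNA precipitated with IMP2 was made up relative to an islet library without precipitation. At a 2-fold limit 0 of 9 genes were called higher and 0 lower, against 17.1% and 24% of 15968 measured genes. Intervals lay above 1 for 5 of 9 and below 1 for 2, against 35% and 42.7% of measured genes, shares that again reflect depth as well as ratio. Resp18 at 1.29 (1.25 to 1.33), Ptprn at 1.27 (1.23 to 1.32) and Chgb at 1.23 (1.21 to 1.26) had the highest ratios. Vgf at 1.19 (1.003 to 1.40) and Slc30a8 at 1.06 (1.01 to 1.11) were just above 1, while Scg2 at 1.02 (0.996 to 1.05) and Scg3 at 0.984 (0.949 to 1.02) had intervals that include it. Chga, with 34436 reads in the IMP2 RIP and 246081 in control islets, had a ratio of 0.752 (0.743 to 0.760). Ptprn2, with 408 reads in the IMP2 RIP and 3079 in control islets, had the lowest ratio, 0.712 (0.640 to 0.790). Both comparisons use the same control library, so their ratios are not independent.

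The side of 1 on which a gene lies depends on the scaling, while the differences between the genes do not. By TMM 6 of 9 ratios lay above 1 and 3 below, against 45.8% and 54.2% of measured genes. By DESeq2 size factors 6 lay above 1, by totals of gene counts 3, and by totals without acinar and hormone genes 0. The median log2 ratio of genes detected in both libraries moved with them, at -0.02 by TMM, -0.32 by totals and -0.47 by totals without acinar and hormone genes. The median of the 9 lay 0.10 above it, a gap that no scaling can change, since each shifts every log2 ratio alike. Over all genes the calls were 2723 higher and 3835 lower by TMM, 2175 higher and 4832 lower by totals, and 1964 higher and 5492 lower without acinar and hormone genes.

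Set against Chgb in the same library, Chga had 2.45 reads per read of Chgb in the IMP2 RIP and 4.02 in control islets, a quotient of 0.609 (0.596 to 0.622). Ptprn2 had a quotient of 0.577 (0.519 to 0.641). For Scg3 it was 0.797 (0.766 to 0.830), for Scg2 0.830 (0.803 to 0.859) and for Slc30a8 0.860 (0.818 to 0.905), all below 1. Ptprn at 1.03 (0.991 to 1.08), Resp18 at 1.05 (1.01 to 1.08) and Vgf at 0.963 (0.817 to 1.13) stayed close to Chgb. The Ptprn paralogs thus stood apart in the IMP2 RIP, with intervals that count reads and do not overlap. The IMP2 RIP gave an estimated 18 reads per molecule, so it held an estimated 22.7 molecules of Ptprn2 and 196 of Ptprn. Their difference was not tested per molecule. With counts divided by reads per molecule, 3 of 9 ratio intervals lay above 1 and 1 below. Brown adipocyte markers, 12 of 12 called higher, summed to 5807 CPM in the IMP2 RIP and 386 CPM in control islets, and lymphocyte markers, 10 of 10 called lower, to 146 CPM in the IMP2 RIP and 1199.7 CPM in control islets. Their part in these ratios was not tested.

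**Figure D3:**
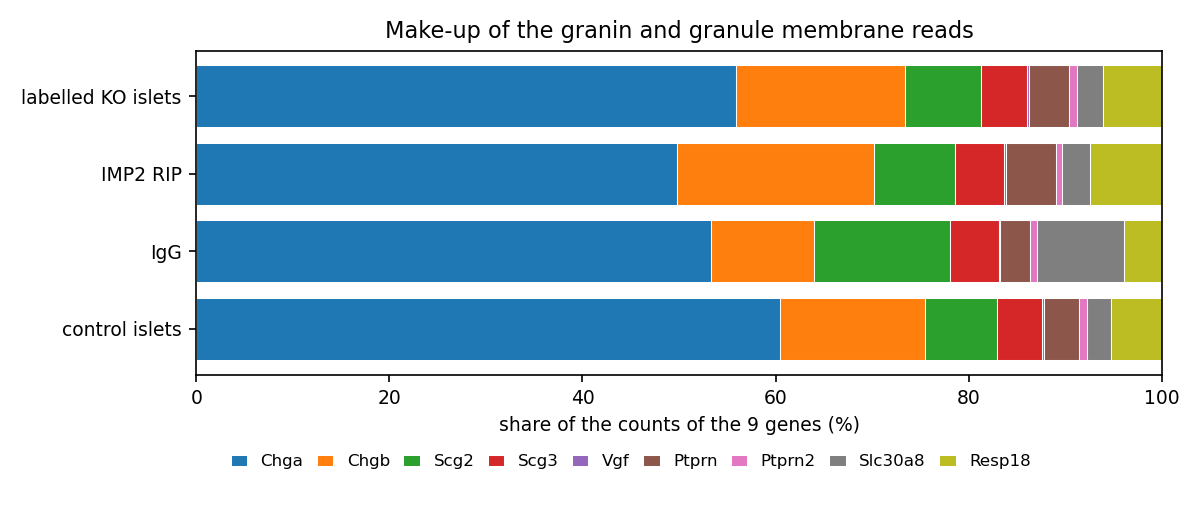
Share of each gene in the reads of the 9 genes (%), 1 bar for each of the labelled KO, IMP2 RIP, IgG and control libraries. Chga holds 55.9% in the labelled KO, 49.8% in the IMP2 RIP, 53.4% in IgG and 60.4% in control islets.

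Read as a pool, the 9 genes show the same differences. Chga held 55.9% (55.8 to 56.1) of their reads in the labelled KO, 49.8% (49.5 to 50.2) in the IMP2 RIP, 53.4% (50.1 to 56.6) in IgG and 60.4% (60.3 to 60.6) in control islets, by exact binomial intervals. Chgb held 17.5% in the labelled KO, 20.4% in the IMP2 RIP, 10.6% in IgG and 15.0% in control islets. Resp18 held 6.13% in the labelled KO, 7.39% in the IMP2 RIP, 3.90% in IgG and 5.22% in control islets. Since Chga is so large a part of the pool, a lower share of it raises all the others.

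The IMP2 RIP was also set against IgG, the comparison meant for recovery with the IMP2 antibody over a control antibody. All 9 genes were called higher and 0 lower, against 43.2% and 30.4% of 14822 measured genes. Chgb had 14069 reads in the IMP2 RIP and 98 in IgG, a ratio of 195 (160.3 to 241). Resp18 had 5103 reads in the IMP2 RIP and 36 in IgG, a ratio of 193 (139 to 276). Chga, with 34436 reads in the IMP2 RIP and 493 in IgG, had a ratio of 95.1 (87.0 to 104). Beta cell markers had a median ratio of 159 in this comparison. The intervals of Resp18, Ptprn at 166 (115 to 248) and Ptprn2 at 79.4 (38.2 to 199) contain that level. The interval of Chgb lay above it, and those of Chga, Scg3 at 101 (76.1 to 138) and Scg2 at 60.7 (51.0 to 72.8) below. These intervals count reads: IgG held an estimated 1.71 molecules of Resp18, 1.38 of Ptprn, 4.67 of Chgb and 0.333 of Ptprn2, so their order rests on few molecules. The estimate is rough, since Ptprn2 had 7 reads there and cannot be less than 1 molecule. Slc30a8 had the lowest ratio, 33.9 (27.2 to 42.8). Vgf had the highest, 239.6 (42.5 to 9518), with an interval that covers the ratios of all the others but Slc30a8, since IgG held 1 read. The IgG library held few islet reads, so recovery with the antibody and the difference in tissue cannot be told apart. Over all genes the calls were 6409 higher and 4513 lower by TMM, 7670 higher and 3387 lower by totals, and 8546 higher and 2804 lower without acinar and hormone genes, and the 9 of 9 held under each.

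Between IgG and control islets, 9 of 9 genes were called lower in IgG and 0 higher, against 46.5% and 26.4% of 15352 measured genes. In IgG the 9 genes stood at 0.251% (Vgf) to 1.58% (Slc30a8) of their CPM in control islets. Their median was 0.400%, and that of the 22 beta cell markers 0.311%. The insulin genes Ins1 and Ins2 stood at 0.313% and 0.311%, close to Chgb at 0.320% and Resp18 at 0.338%. Ptprn at 0.389%, Ptprn2 at 0.454% and Scg3 at 0.491% were a little higher. Scg2 at 0.854% and Slc30a8 at 1.58% stood apart, with quotients to Chgb of 2.67 (2.06 to 3.48) and 4.96 (3.70 to 6.64). These rest on few molecules: at an estimated 21 reads per molecule, the 83 reads of Slc30a8 are an estimated 3.95 molecules and the 130 reads of Scg2 an estimated 6.19, and the intervals count reads. Over all genes the calls were 4057 higher and 7140 lower by TMM, 2577 higher and 9191 lower by totals, and 1924 higher and 10441 lower without acinar and hormone genes.

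**Figure D4:**
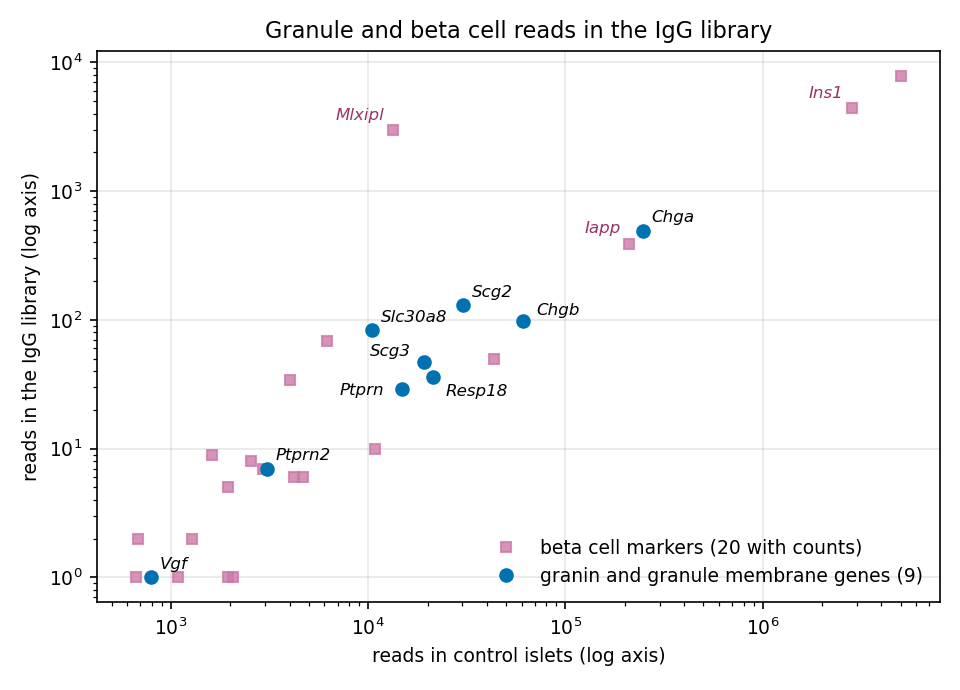
Reads in IgG against reads in control islets, both on log axes, for the 9 genes (circles) and the 20 beta cell markers with reads in IgG (squares). The 9 genes lie among most beta cell markers, from Vgf with 1 read in IgG to Chga with 493, and the beta cell marker Mlxipl, at 44.7% of its CPM in control islets, lies far above.

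Genes that act with the 9 in the granule were described by list. In the labelled KO over control 6.11% of all measured genes were called higher and 15.4% lower, which is the background of each list count in that comparison. There, granule protein processing had 0 of 8 measured genes called higher and 0 lower (median log2 ratio 0.26). Pcsk2, the prohormone convertase that is most abundant there, had a ratio of 1.096 (1.08 to 1.11). Pcsk1n and Scg5, which encode granin-like partners of the convertases, had 1.35 (1.33 to 1.38) and 1.25 (1.22 to 1.29). Granule biogenesis had 1 of 12 measured genes called higher and 0 lower (median log2 ratio 0.28). The called gene was Hid1, needed for dense-core granules to form at the trans-Golgi, with 6738 reads (278 CPM) in the labelled KO and 3657 reads (139 CPM) in control islets, a ratio of 2.07 (1.99 to 2.15). Docking and release had 2 of 17 measured genes called higher and 1 lower (median log2 ratio 0.40). Rab3a, a GTPase on granules, rose, with a ratio of 1.57 (1.48 to 1.67), as did Snap25, a SNARE protein of the plasma membrane, with 1.51 (1.45 to 1.58). With the beta cell median set to 1 both calls end, at 1.23 (1.16 to 1.30) for Rab3a and 1.18 (1.13 to 1.24) for Snap25. Sntb2, the syntrophin that links the product of Ptprn to actin, fell, with 154 reads (6.34 CPM) in the labelled KO and 293 reads (11.1 CPM) in control islets, a ratio of 0.590 (0.482 to 0.720).

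Other granule membrane genes had 2 of 12 measured genes called higher and 0 lower (median log2 ratio 0.35). They were Slc17a9, the vesicular nucleotide transporter, at 1.51 (1.39 to 1.64) and Sv2c, a synaptic vesicle glycoprotein, at 2.19 (1.60 to 3.03). With the beta cell median set to 1, Slc17a9 was no longer called, at 1.18 (1.09 to 1.28). The V-ATPase, the pump that acidifies granules, had 0 of 19 measured genes called higher and 0 lower (median log2 ratio 0.24). Zinc transporters, Slc30a8 among them, had 1 of 21 measured genes called higher and 2 lower (median log2 ratio 0.14). Slc30a8 was the first of 24 zinc transporter genes per kb in the labelled KO at 230.0 CPM per kb, against 14.6 for the next, Slc39a1. In the IMP2 RIP it was first at 174, against 12.0 for Slc30a6, and in control islets first at 202, against 16.9 for Slc39a1. In IgG it was number 5 at 3.19 CPM per kb.

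Regulators of granule genes had 2 of 12 measured genes called higher and 2 lower (median log2 ratio -0.26), against 6.11% and 15.4% of all measured genes. Rest, which binds RE1 and represses granin genes outside neuroendocrine cells, fell, with 137 reads (5.64 CPM) in the labelled KO and 492 reads (18.7 CPM) in control islets, a ratio of 0.313 (0.257 to 0.379). Rest is expressed in many cells outside the endocrine lineage, and the lymphocyte markers had a median log2 ratio of -2.51 in the same comparison. Their part in the level of Rest was not tested. Creb1, whose product binds the CRE, fell, with a ratio of 0.656 (0.600 to 0.718), while Crem, of the same family, rose, with 1.60 (1.42 to 1.79), as did Neurod1, a factor of endocrine cells, with 1.58 (1.49 to 1.67). With the beta cell median set to 1, Crem at 1.25 (1.11 to 1.40) and Neurod1 at 1.23 (1.16 to 1.31) were no longer called. The list then had 0 of 12 genes higher and 6 lower, against 1.26% and 30.0% of all measured genes at that setting. Some genes of this list, Neurod1 and Pax6 among them, are also beta cell markers and so are part of that reference. Pax6, the most abundant of the list, had a ratio of 1.44 (1.40 to 1.49). Ptbp1, whose product stabilises granule mRNAs in rat insulinoma cells, had 0.675 (0.638 to 0.715), inside the limit. The median of the beta cell markers was 0.36 on the same log2 scale, and with it set to 0 the medians of these 7 lists all lie below 0 but that of docking and release.

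**Figure D5:**
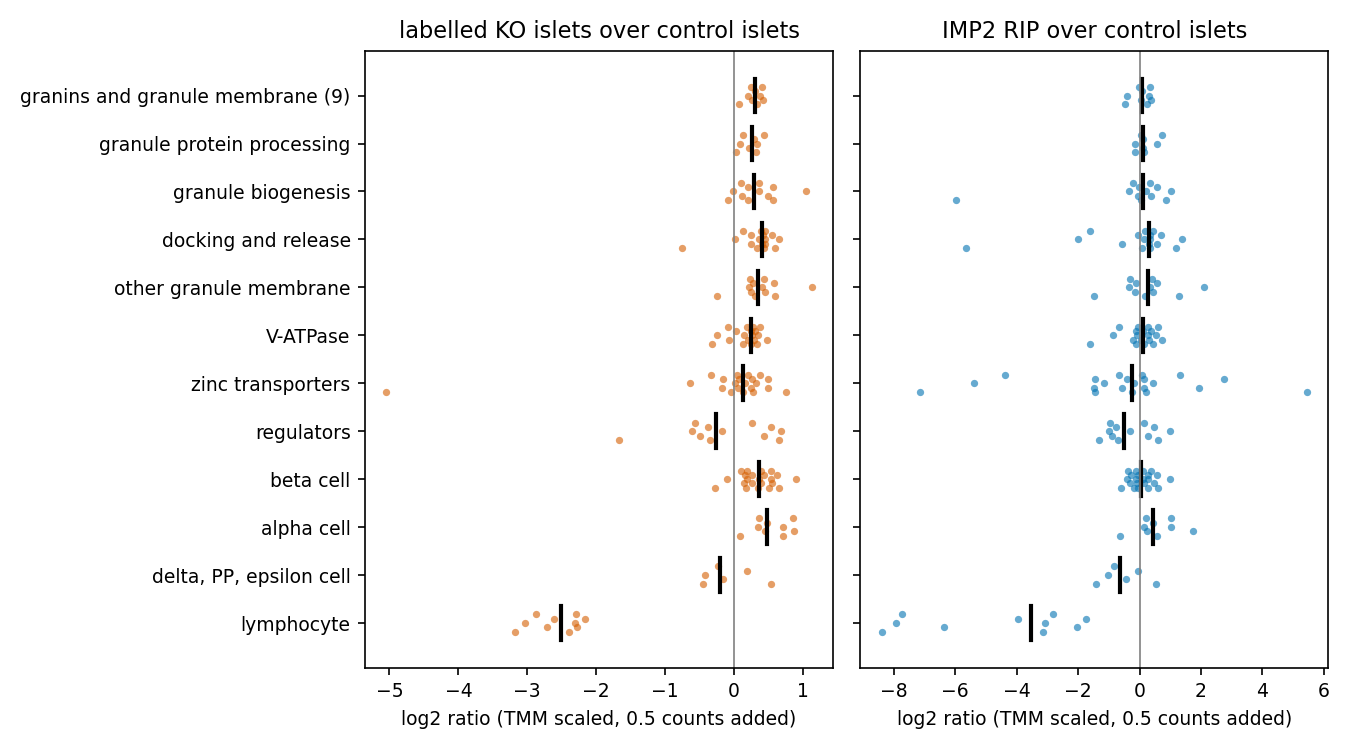
Log2 ratio of each measured gene by list, labelled KO over control (left) and IMP2 RIP over control (right), by TMM with 0.5 counts added; points are genes and black bars list medians. On the left the 9 genes have a median of 0.31, the other granule lists 0.14 to 0.40 apart from the regulators at -0.26, and the lymphocyte markers -2.51.

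In the IMP2 RIP over control, 17.1% of all measured genes were called higher and 24% lower. Granule protein processing had 0 of 8 measured genes called higher and 0 lower (median log2 ratio 0.12). Granule biogenesis had 1 of 12 measured genes called higher and 1 lower (median log2 ratio 0.12). Syt4, a synaptotagmin of immature granules, was higher at 2.01 (1.82 to 2.22), and Arfip1 had 0 reads in the IMP2 RIP and 168 in control islets. Docking and release had 2 of 17 measured genes called higher and 3 lower (median log2 ratio 0.31), with Myrip, which ties granules to myosin and actin, the highest at 2.57 (1.88 to 3.48). Other granule membrane genes had 2 of 12 measured genes called higher and 1 lower (median log2 ratio 0.27), with Sv2c at 4.25 (2.86 to 6.28) the highest. The V-ATPase had 0 of 19 measured genes called higher and 1 lower (median log2 ratio 0.12). Zinc transporters had 4 of 21 measured genes called higher and 7 lower (median log2 ratio -0.24), and regulators 1 of 12 measured genes called higher and 2 lower (median log2 ratio -0.50). Neurod1 was higher at 2.002 (1.84 to 2.18) and Rest lower at 0.393 (0.272 to 0.552). These calls count reads. The IMP2 RIP held an estimated 3.61 molecules of Myrip, 2.72 of Sv2c and 2 of Rest, and with counts divided by reads per molecule these calls and that of Arfip1 end. Syt4 at 2.01 (1.36 to 2.87) and Neurod1 at 2.002 (1.43 to 2.73) were still called, while with the beta cell median set to 1 both lay just under the limit, Syt4 at 1.97 (1.78 to 2.17). Per molecule, docking and release had 0 higher and 0 lower and zinc transporters 3 higher and 1 lower. At that setting 8.73% of all measured genes were called higher and 6.04% lower. The range of log2 ratios was wider than in the labelled KO over control in 6 of the 7 lists, all but the regulators. The IMP2 RIP had 6025594 gene counts against 24275628 in the labelled KO. Arfip1, with 0 reads, set the low end of granule biogenesis at -5.97. The part of depth in these ranges was not tested.

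In the IMP2 RIP over IgG, 7 of 8 processing genes, 14 of 16 docking and release genes and 9 of 11 other granule membrane genes were called higher, against 43.2% of all measured genes. The share called lower was 30.4% of all measured genes. Beside these, 5 of 12 biogenesis genes were called higher and 3 lower, 5 and 7 of 19 V-ATPase genes, and 8 and 6 of 20 zinc transporters. For biogenesis genes and zinc transporters both shares are near those of all genes. Granins are also expressed outside the islet. Chromaffin cell and neuron markers summed to 192 CPM in the labelled KO, 163 in the IMP2 RIP, 2.96 in IgG and 163 in control islets, with Pnmt at 0 in all 4. Enteroendocrine markers summed to 153 CPM in the labelled KO, 80.0 in the IMP2 RIP, 0.530 in IgG and 85.9 in control islets, and only Tph1 among the 6, which beta cells also express, reached the 1 CPM limit.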

How the data were processed

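Per the submitters' processing notes, the authors used STAR and HTSeq with mm10. What was deposited is a raw count of reads for every Ensembl gene in each library. Tool versions, annotation release and strand setting were not stated, so genes that overlap may share reads. GENCODE M21 (GRCm38) lists 6 genes overlapping Ptprn2 and 1 each for Ptprn, Scg3 and Resp18, with 0 to 49 counts in control islets. The 5 entries that name no gene held 50.3% of the total in the labelled KO, 72.4% in the IMP2 RIP, 70.5% in IgG and 50.8% in control islets, and were left out.

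Pairs of libraries were scaled with TMM (edgeR 4.0.16) on genes with a mean of at least 1 CPM. Ratios have exact 95% Clopper-Pearson intervals and quotients to Chgb log-normal ones. Calls needed 1.5-fold for the labelled KO and 2-fold elsewhere. Reads per molecule are the median count, in that library, of genes over 5 counts there and at 0 in the labelled KO and control islets. This assumes that each such gene is 1 molecule, which was not tested. Estimated molecules, and calls made per molecule, are therefore rough. DESeq2 1.42.0 gave size factors only. The interval and call steps were tested on simulated counts with counting error only and known library totals. That test covers neither the scaling nor copies of the same molecule. The genes, lists and limits were chosen with earlier results of these data known. List genes were named as the most abundant or as called genes of largest or smallest ratio. Pcsk1n, Scg5, Snap25, Neurod1, Creb1 and Ptbp1 were in part named after their values were seen.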

Additional observations from a re-analysis of the deposited data

How the results depend on the processing

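The counts of the 9 genes called higher and lower were 0 and 0 for labelled KO over control, 0 and 0 for IMP2 RIP over control, 9 and 0 for IMP2 RIP over IgG, and 0 and 9 for IgG over control. All 66 recounts under other scalings, expression limits, fold limits and error models gave these same counts. For the comparisons at 0 and 0, only the other scalings test this. There a higher fold limit or a wider interval adds no call, and all 9 genes have a mean above 5 CPM. Over the other scalings the 9 ratios lay between 0.825 and 1.36 for labelled KO over control. For IMP2 RIP over control they lay between 0.520 and 1.29, inside the fold limit. Of 297 recomputed single ratios, 71 left their counting interval. Calls over all genes moved more. For labelled KO over control they were 962 higher and 2416 lower, against 196 higher and 1377 lower at 2-fold, 495 higher and 1585 lower at a mean of 5 CPM and 272 higher and 1573 lower with an assumed variation of 0.2. For IMP2 RIP over control they were 2723 higher and 3835 lower, against 1445 higher and 2261 lower at 4-fold, 1337 higher and 2172 lower at 5 CPM, 2466 higher and 2423 lower with the assumed variation and 1394 higher and 964 lower per molecule. For IMP2 RIP over IgG they were 6409 higher and 4513 lower, against 4951 higher and 2970 lower at 4-fold, 3951 higher and 3518 lower at 5 CPM, 4079 higher and 3791 lower with the assumed variation and 2315 higher and 2822 lower per molecule. For IgG over control they were 4057 higher and 7140 lower, against 2551 higher and 5461 lower at 4-fold, 3260 higher and 4785 lower at 5 CPM, 3973 higher and 4678 lower with the assumed variation and 3506 higher and 3791 lower per molecule. With that variation 0 of 9 intervals exclude 1 in either comparison with control islets other than IgG. The list counts with the beta cell median set to 1 and per molecule were added after the data were seen. No paired analysis was possible because each group has 1 library. Depth limits Vgf and Ptprn2 in IgG, with 1 and 7 reads.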

Other observations

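Ptprn and Resp18 are neighbours on chromosome 1, on the minus strand and 7696 bases apart, with no protein-coding gene between them. They had the 2 highest ratios of the 9 in the IMP2 RIP over control, and were the highest (Resp18) and the third highest (Ptprn) in the labelled KO over control. Dnajb2, which encodes a chaperone, had 79.6 CPM in the labelled KO, 78.2 in the IMP2 RIP, 199.8 in IgG and 65.1 in control islets. Dnpep, which encodes an aminopeptidase, had 90.7 CPM in the labelled KO, 67.7 in the IMP2 RIP, 27.3 in IgG and 65.7 in control islets. These genes on either side share with the pair the order of the other 3 libraries, labelled KO, IMP2 RIP and control islets from high to low. That order is not particular to this place: Chgb, on chromosome 2, has it too, at 2985, 2335 and 2324 CPM. The share of all genes with it was not counted. Relative to control islets, IgG held far more of Dnajb2 and Dnpep than of the pair.

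Profiles were compared over 11210 other protein-coding genes with a mean of at least 5 CPM, by Euclidean distance on centred log2(CPM + 0.5) values over the 4 libraries. The 9 genes themselves lay 0.14 (Scg3) to 1.38 (Vgf) from their own median profile. The added 0.5 flattens profiles of low level. Vgf had 1 read (0.0758 CPM) in IgG, at 0.251% of its CPM in control islets, the lowest of the 9. Its distance therefore rests on the added 0.5, and nearest genes are matched in part on level. Iapp, which encodes the granule cargo islet amyloid polypeptide, was the nearest gene to both Chgb and Resp18. The nearest gene was Ddc for Chga, Slc7a5 for Scg2, Slc2a2 for Scg3, Tspoap1 for Vgf, Cdh1 for Ptprn, Esrp1 for Ptprn2 and Sez6l2 for Slc30a8.

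GGAC, the core of the m6A consensus that IMP proteins are known to bind in human cells, was counted per kb of principal transcript. There were 6.90 in Chga, 6.47 in Ptprn, 6.25 in Ptprn2, 4.94 in Vgf and 4.38 in Chgb. There were 4.01 in Resp18, 3.04 in Slc30a8, 2.52 in Scg3 and 1.59 in Scg2, against a median of 4.22 over 10584 measured genes. Chga and Ptprn2, with the lowest ratios in the IMP2 RIP over control, and Ptprn, with one of the highest, were the 3 densest.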
